A study of Mus musculus with 2 samples.

Results

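The endothelial marker genes described here are the 10 genes *Pecam1*, *Cdh5*, *Kdr*, *Flt1*, *Tek*, *Tie1*, *Emcn*, *Eng*, *Esam* and *Cd34*, out of 29924 gene names on the arrays. They were chosen by name and not by their values, although earlier results of these data were known. They were measured by 14 probes. RNA came from ureters of newborn (P0) wild-type NMRI mice kept as explants for 18 h, either in 5 µM IWP-2 or in DMSO, its solvent, diluted 1:1000. IWP-2 inhibits PORCN, the acyltransferase that prepares WNT ligands for secretion. Each of the 2 arrays set 1 control pool against 1 treated pool, each made of 5 to 6 ureters. Pups were female for replicate 1 and male for replicate 2. The dyes were swapped between the arrays, so that sex, dye orientation and array cannot be told apart.

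Endothelial cells line the blood vessels. Their surface receptors for vascular endothelial growth factors (VEGF) drive vessel growth, the TIE receptors and their angiopoietin ligands steady the vessel wall, and junction proteins seal neighbouring cells to each other. In brain vessels, WNT signaling through beta-catenin is known to shape endothelial gene expression. Whether shutting off WNT secretion moved these genes in the ureter is the question of the comparison.

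None of the 10 markers changed detectably after 18 h of IWP-2. Limma called 0 of the 10 at an adjusted p of 0.05, against 1.34% of the 14321 genes tested. One marker, *Tek*, had an unadjusted p below 0.05, which 13% of the tested genes also had. None passed a filter that asked for a control signal above 100 and a change of at least 1.5-fold in the same direction on both arrays, which 0.434% of the 14051 eligible genes passed, 0.363% lower and 0.0712% higher. Mean log2 ratios of IWP-2 over control ran from -0.17 to 0.19 with a median of -0.07, and the median of all tested genes was -0.01. The limma 95% intervals of all 10 means lay within 1.5-fold in either direction, and the bound farthest from no change was 1.34-fold lower, for *Flt1*. A p that misses the threshold does not show that a gene was unaffected, and shifts within these intervals were not detectable with 2 arrays. Each array holds whole ureters, in which fewer endothelial cells and less RNA per cell cannot be told apart. With 1 pool per channel, the p-values reach no further than these pools. The SE, intervals and p-values of limma are moderated, with the spread of a gene between the 2 arrays pooled with that of all tested genes. The gene itself gives 1 degree of freedom and all genes give 5.72. An SE given here is therefore mostly the typical spread over genes, not that of the 2 arrays alone.

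The material was checked against its own markers. The urothelial plaque gene *Upk2* gave signals of 16867 and 21471 in the control pools and 23506 and 23342 in the treated pools, and the smooth muscle myosin gene *Myh11* gave 7264 and 5055 in the control and 6971 and 6303 in the treated pools, in the order of replicates 1 and 2 as throughout. Of the 14 endothelial probes, 13 were well above background on both arrays in both channels, and the exception was 1 *Flt1* probe. Per channel, 68.4% to 70.0% of the spots were well above background. Per array, 3.22% to 3.32% of the spots carried an outlier flag and 0 were saturated. Of the 112 spots of the endothelial probes, 5 were flagged and left out. A signal is the normalized brightness of a probe in arbitrary units, and levels of different probes are not compared, since probes bind with different strength.

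The probes themselves show what was read. A pair of them, for the TIE receptors, lies in the corresponding stretch of the related kinase genes. The *Tek* probe covers chr4:94540624-94540683 (mm9, plus strand) and the *Tie1* probe chr4:118144132-118144191 (mm9, minus strand). They are printed with the bases in capitals that are identical when the probes are aligned without gaps.
*Tek*: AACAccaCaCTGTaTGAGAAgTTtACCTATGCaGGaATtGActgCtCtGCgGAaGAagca
*Tie1*: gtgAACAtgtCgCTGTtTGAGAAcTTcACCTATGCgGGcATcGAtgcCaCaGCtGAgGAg
Over the 57 aligned bases 39 were identical (68.4%), and the longest unbroken run of identical bases was 8.

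Coding sequence was also read by the *Pecam1* probe, at chr11:106540864-106540923 (mm9, minus strand), and by the dimmer of the *Cd34* probes, at chr1:196785280-196785339 (mm9, plus strand). They are shown in lower case throughout, as no single part of them is singled out.
*Pecam1*: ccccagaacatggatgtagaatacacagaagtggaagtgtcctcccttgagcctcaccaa
*Cd34*: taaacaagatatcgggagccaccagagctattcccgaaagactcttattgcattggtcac
Each of the 14 probes is 60 bases long and maps to 1 unbroken stretch of 60 bases.

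Of the VEGF receptors, *Kdr* (VEGFR2) is the main signaling receptor for VEGF-A, and *Flt1* (VEGFR1) binds the same ligand tightly and also exists as a shorter, soluble decoy. The brighter *Kdr* probe, at chr5:76329309-76329368 (mm9, minus strand), gave signals of 4123 and 3301 in the control and 3588 and 3632 in the treated pools. The female control pool was thus the highest and the male control pool the lowest, with both treated pools between them. The log2 ratio was -0.20 in replicate 1 and 0.14 in replicate 2, a mean of -0.03 ± 0.09 (SE, n = 2 arrays) with a limma adjusted p of 0.99. All 4 spots lay below 0 in replicate 1, between -0.21 and -0.19, and all 4 lay above 0 in replicate 2, between 0.11 and 0.16.

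A second *Kdr* probe, 1086 bases away at chr5:76330395-76330454 (mm9, minus strand), did not show this split. Its signals were 471 and 456 in the control and 473 and 455 in the treated pools. The log2 ratios were 0.00 in both arrays after rounding, with a mean of 0.00 ± 0.07 (SE, n = 2 arrays). Both probes are assigned to the same *Kdr* transcript by the array design, and both were well above background in all 4 channels.

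*Flt1* had the largest single-array ratio among the markers. Its brighter probe, at chr5:148373791-148373850 (mm9, minus strand), gave signals of 1108 and 915 in the control and 852 and 944 in the treated pools. The female control pool stood above the other 3. The log2 ratio was -0.38 in replicate 1, where the 4 spots lay between -0.40 and -0.35, and 0.04 in replicate 2, where they lay between 0.02 and 0.07. The mean was -0.17 ± 0.11 (SE, n = 2 arrays), 11.0% lower, with a limma 95% interval of -0.42 to 0.08 and an adjusted p of 0.68.

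The other *Flt1* probe with signal lies 73081 bases away within the gene, at chr5:148446872-148446931 (mm9, minus strand), and is assigned to another transcript. It read 775 and 711 in the control and 727 and 696 in the treated pools, so that the treated pool was slightly below its control on both arrays. Log2 ratios were -0.09 and -0.03. The remaining probe, 92185 bases from the brightest and assigned to a cDNA clone, was at the signal floor of 15 in all 4 channels and has no ratio.

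**Figure D1:**
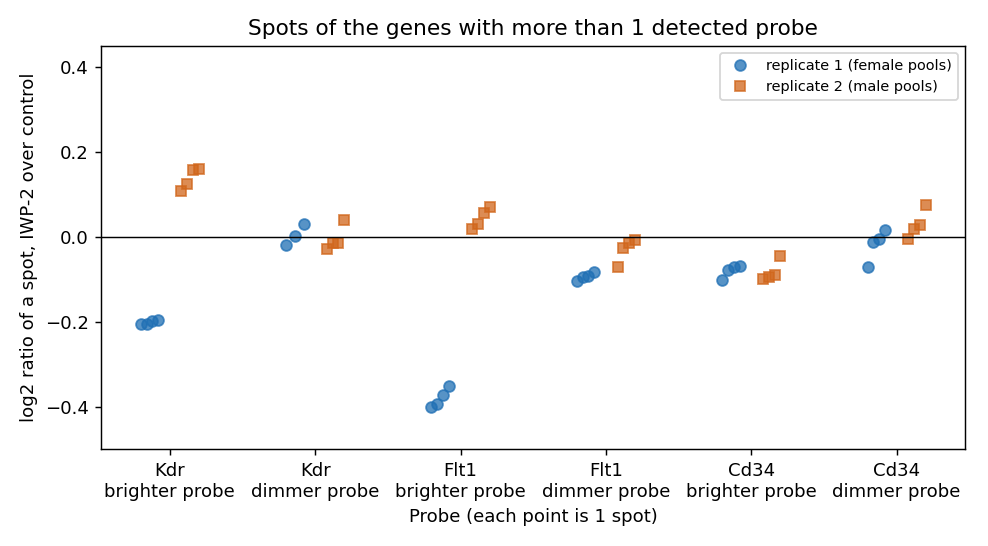
Log2 ratio of IWP-2 over control for each spot of the genes with more than 1 detected probe, by probe (x axis) and array (circles, replicate 1, female pools, and squares, replicate 2, male pools). For *Kdr* and *Flt1* the arrays separate on the brighter probe, between -0.21 and 0.16 for *Kdr*, while the dimmer probes lie close to 0 on both arrays.

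*Tek* (TIE2) is the receptor for the angiopoietins, and *Tie1* is its orphan partner. *Tek* gave signals of 360 and 287 in the control and 383 and 350 in the treated pools. The treated pool was above its own control on both arrays, although the male treated pool was below the female control pool. The log2 ratios were 0.09 and 0.29, and the mean was 0.19 ± 0.08 (SE, n = 2 arrays), 13.9% higher, with all 8 spots above 0. The limma 95% interval ran from 0.005 to 0.37, the unadjusted p was 0.046 and the adjusted p 0.37. Of the 10 markers this was the one whose interval did not include 0.

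*Tie1* gave signals of 1149 and 1096 in the control and 1197 and 972 in the treated pools. The treated pools were thus both the highest and the lowest. The log2 ratio was 0.06 in replicate 1 and -0.17 in replicate 2, with every spot on the same side of 0 as its array, and the mean was -0.06 ± 0.08 (SE, n = 2 arrays, limma adjusted p = 0.94). On the male array the *Tek* and *Tie1* probes therefore read in opposite directions.

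The junction and adhesion genes were close to their controls. *Cdh5* (VE-cadherin), the adhesion molecule of endothelial adherens junctions, gave 5691 and 4904 in the control and 5060 and 4778 in the treated pools. Treated was below control on both arrays, but the female treated pool was above the male control pool. Its log2 ratios were -0.17 and -0.04, a mean of -0.10 ± 0.07 (SE, n = 2 arrays, limma adjusted p = 0.73). *Pecam1* (CD31), an adhesion molecule at endothelial cell borders, gave 2055 and 1677 in the control and 2066 and 1929 in the treated pools. Here the male control pool was the lowest, and the other 3 pools were close together. The log2 ratios were 0.01 and 0.20, with a mean of 0.11 ± 0.08 (SE, n = 2 arrays, limma adjusted p = 0.75). *Esam*, an immunoglobulin-like adhesion molecule of tight junctions, read 2254 and 2204 in the control and 2134 and 2108 in the treated pools. It was the only marker whose treated pools both lay below both control pools, which 17% of all tested genes also did. The difference was small, with log2 ratios of -0.08 and -0.06 and a mean of -0.07 ± 0.07 (SE, n = 2 arrays, limma adjusted p = 0.84).

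*Eng* (endoglin), a coreceptor for BMP and TGF-beta family ligands, gave 658 and 721 in the control and 638 and 668 in the treated pools. Treated was below control on both arrays, with log2 ratios of -0.04 and -0.11 and a mean of -0.08 ± 0.07 (SE, n = 2 arrays, limma adjusted p = 0.81). *Emcn* (endomucin), a sialomucin found mainly on capillaries and veins, gave 1648 and 1625 in the control and 1507 and 1637 in the treated pools. The female treated pool was the lowest and the other 3 were nearly equal. Its log2 ratios were -0.13 and 0.01, with a mean of -0.06 ± 0.07 (SE, n = 2 arrays, limma adjusted p = 0.91). *Cd34*, a sialomucin of small vessels that is also carried by fibroblasts and blood progenitors, gave 9347 and 8566 in the control and 8845 and 8090 in the treated pools. Both arrays gave a log2 ratio of -0.08, and the mean was -0.08 ± 0.07 (SE, n = 2 arrays, limma adjusted p = 0.80). The dimmer *Cd34* probe, 2112 bases away, read 1005 and 967 in the control and 992 and 987 in the treated pools, with a mean of 0.01 ± 0.07 (SE, n = 2 arrays).

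**Figure D2:**
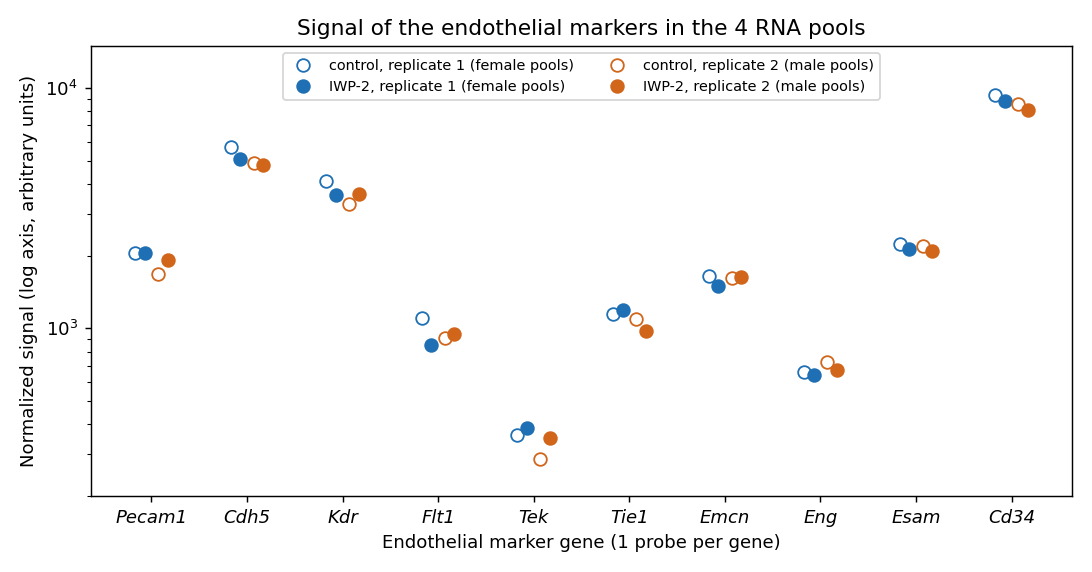
Normalized signal (y axis, logarithmic) of the probe that stands for each endothelial marker in the 4 RNA pools. Open symbols are control and filled symbols IWP-2-treated pools, in blue for replicate 1 (female) and orange for replicate 2 (male). Within a gene the 4 values lie close together, and treated and control values overlap for every marker but *Esam*.

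Across the markers, 4 were below control on both arrays (*Cdh5*, *Eng*, *Esam*, *Cd34*), 2 were above it on both (*Pecam1*, *Tek*), and 4 had opposite signs (*Kdr*, *Flt1*, *Tie1*, *Emcn*). Among all tested genes the shares were 29.2% below on both, 25.7% above on both and 45.1% with opposite signs. The mean was below 0 for 8 of the 10 markers and for 53% of the tested genes.

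**Figure D3:**
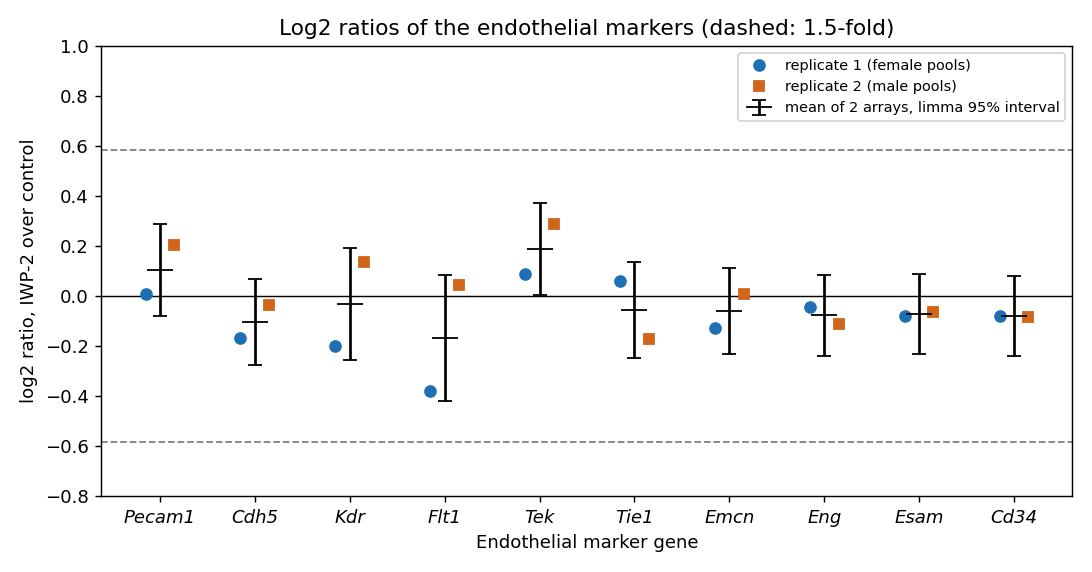
Log2 ratio of IWP-2 over control (y axis) for each endothelial marker in replicate 1 (circles, female pools) and replicate 2 (squares, male pools), with the mean and its limma 95% interval (bars). Dashed lines mark 1.5-fold. Every interval lies between the dashed lines, and the interval of *Tek*, from 0.005 to 0.37, is the one that does not reach 0.

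Between the arrays, most markers differed by more in the control pools than in the treated pools. The control signal was higher in replicate 1 than in replicate 2 for 9 of the 10 markers, against 50.4% of the tested genes, and *Eng* was the exception. The median difference was 0.17 on the log2 scale. In the treated pools 6 of the 10 were higher in replicate 1, against 49.3% of the tested genes, with a median difference of 0.05. For *Kdr* the arrays differed by 0.32 in the control and by -0.02 in the treated pools, and for *Flt1* by 0.28 and -0.15. *Tie1* showed the reverse order, with 0.07 in the control and 0.30 in the treated pools. *Emcn* also differed by more in the treated pools, at -0.12 against 0.02 in the control, and *Cd34* differed by 0.13 in both. The log2 ratio was accordingly higher in replicate 2 for 7 of the 10 markers, which 49.1% of the tested genes were. There is 1 pool of each kind, so these differences have no replicate.

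Markers of other cell types also differed between the arrays, in either direction. All 10 smooth muscle genes had higher control signals in replicate 1, with a median difference of 0.35 on the log2 scale, and all 10 had the higher log2 ratio in replicate 2. Their summed control signal was 103158 in replicate 1 and 87252 in replicate 2, and the summed treated signals were 102860 and 102347. The 10 urothelial genes ran the other way. None had a higher control signal in replicate 1, the median difference was -0.29, and the sums were 144046 and 174693 in the control and 180465 and 179403 in the treated pools. Of the 9 tested pericyte and mural cell genes, 8 had higher control signals in replicate 1, and the sums were 20327 and 18077 in the control and 19595 and 18770 in the treated pools. The control signal was higher in replicate 1 for 6 of 10 fibroblast genes, for 2 of 9 leukocyte and macrophage genes (median difference -0.26) and for 0 of 5 red blood cell and platelet genes (median difference -0.12). The part of the pools' cell makeup in the endothelial values was not tested.

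**Figure D4:**
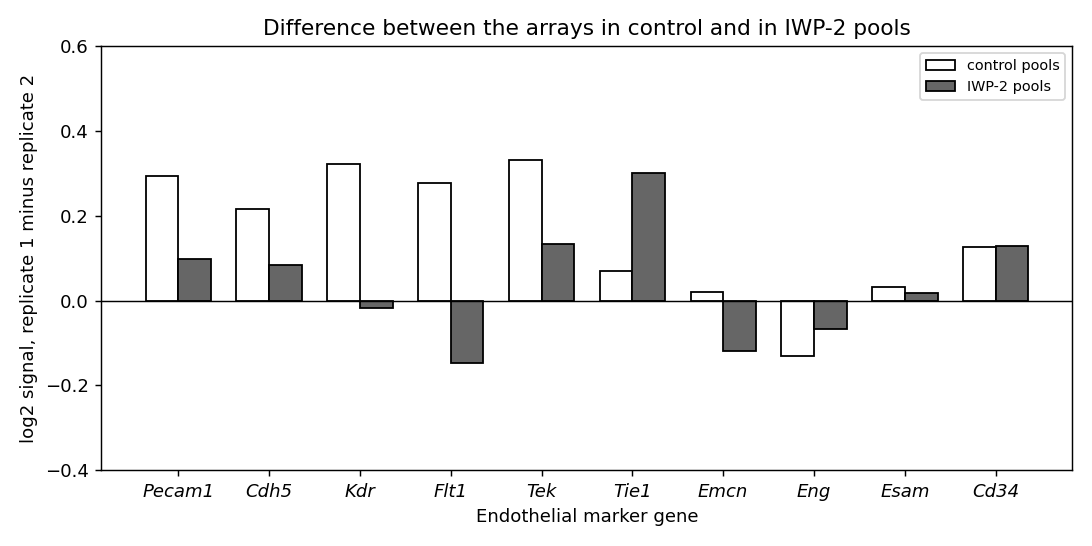
Difference in log2 signal between the arrays, replicate 1 (female) minus replicate 2 (male), for each endothelial marker (x axis) in the control pools (white bars) and the IWP-2-treated pools (grey bars). The control bars are above 0 for 9 of the 10 markers, reaching 0.33 for *Tek*, while the grey bars fall on both sides of 0.

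The other genes of these pathways were followed in 9 lists of vessel genes. Among the 90 tested genes outside the 10 markers, 2 were called lower and 0 higher by limma at an adjusted p of 0.05, against 0.922% and 0.419% of all tested genes, and their median log2 ratio was 0.00. At an unadjusted limma p below 0.05 there were 4 lower and 9 higher, against 962 and 900 of the 14321 tested genes, 13% together. That 13% is also the share to set beside the unadjusted counts of the single lists that follow. As with the markers, the log2 ratio was higher in replicate 2 for 67 of the 90, against 49.1% of the tested genes. The control signal was higher in replicate 1 for 68, against 50.4%. *Erg*, the ETS factor that defines endothelial identity, was too dim to test, with signals of 52.6 and 68.7 in the control and 78.1 and 82.1 in the treated pools, all below 100.

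The ligands of the VEGF receptors were not called. Of 7 tested VEGF ligands and coreceptors, 0 passed, with 1 at an unadjusted p below 0.05, and their median log2 ratio was 0.11. *Pgf*, the placental growth factor that binds FLT1, had a mean of 0.18 ± 0.07 (SE, n = 2 arrays), and *Vegfa*, the main ligand of KDR, one of 0.12 ± 0.07. Among 6 tested angiopoietin and TIE partner genes 0 were called, also at an unadjusted p below 0.05. The TEK agonist *Angpt1*, which was dim, gave 118 and 101 in the control and 122 and 134 in the treated pools, a mean of 0.22 ± 0.10 (SE, n = 2 arrays). *Angpt2*, which opposes it in many settings, had 0.02 ± 0.08.

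Transcription factors and surface genes that mark endothelium held 0 calls. Of 17 tested factors 0 were called, 2 at an unadjusted p below 0.05, with a median of -0.02. The largest value was that of *Klf4*, a factor also active in epithelium, at 0.28 ± 0.07 (SE, n = 2 arrays, limma adjusted p = 0.13). Of 15 junction and surface genes 0 were called and 2 had an unadjusted p below 0.05, with a median of -0.04. *Plvap*, which forms the diaphragms of fenestrated capillaries, had -0.18 ± 0.07, and *Cd36*, a fatty acid carrier of capillaries, 0.29 ± 0.08. Arterial genes (8 tested, median 0.01), venous genes (5 tested, median 0.01) and BMP and TGF-beta receptor genes with their targets (7 tested, median 0.00) held 0 calls, with 0, 1 and 1 genes at an unadjusted p below 0.05.

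Among 18 other tested endothelial genes, 0 were called and 3 had an unadjusted p below 0.05, with a median of 0.02. *Calcrl*, the receptor for adrenomedullin, came closest, with signals of 128 and 134 in the control and 236 and 180 in the treated pools. Both treated pools lay above both controls. The log2 ratios were 0.89 and 0.42, the mean was 0.66 ± 0.11 (SE, n = 2 arrays) and the limma adjusted p was 0.051. With normexp background correction *Calcrl* was called (limma adjusted p = 0.021), and without further loess it was not (limma adjusted p = 0.080). *Apln*, the ligand of the apelin receptor, had a mean of -0.27 ± 0.07, with an adjusted p of 0.16.

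The calls among vessel genes were WNT target genes. Of the 9 tested genes listed for WNT signaling in brain endothelium, 2 were lower and 0 higher. The list also holds receptor and coreceptor genes (*Fzd4*, *Adgra2*, *Reck*, *Tspan12*), so an uncalled gene in it is not always a WNT target gene. *Axin2*, a feedback inhibitor induced by WNT in many cell types, gave 181 and 154 in the control and 42.1 and 46.7 in the treated pools, a mean of -1.92 ± 0.10 (SE, n = 2 arrays, limma adjusted p = 0.00056). A second *Axin2* probe lay near the signal floor, with 20.1 and 17.2 in the control pools. *Apcdd1*, a WNT antagonist at the cell surface, gave 1020 and 874 in the control and 726 and 578 in the treated pools, a mean of -0.54 ± 0.07 (SE, n = 2 arrays, limma adjusted p = 0.021). The *Apcdd1* call was lost in 5 of 13 alternative fits (limma adjusted p up to 0.59) and the *Axin2* call in 1 of 12, the authors' series table (limma adjusted p = 0.32). Neither gene is restricted to endothelium, and in whole ureters their signal cannot be assigned to a cell type. The median of the 9 was -0.09.

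Cells that adjoin the endothelium or share its markers were read from the same arrays. *Rgs5*, a pericyte and mural cell marker, was higher, with 3696 and 4372 in the control and 5274 and 5802 in the treated pools, a mean of 0.46 ± 0.07 (SE, n = 2 arrays, limma adjusted p = 0.035). It was the only call among 9 tested pericyte genes, whose median was -0.12. Of these 9 genes, 7 had a mean below 0. At an unadjusted limma p below 0.05, 3 were lower and 1 was higher. Of 10 tested fibroblast genes, some of them in cells that carry *Cd34*, *Thy1* was lower, with 6823 and 6168 in the control and 4500 and 4777 in the treated pools, a mean of -0.48 ± 0.08 (SE, n = 2 arrays, limma adjusted p = 0.048). Of 13 alternative fits, 6 lost the call for *Rgs5* (limma adjusted p up to 0.54) and 9 that for *Thy1* (up to 0.59). No smooth muscle or urothelial gene was called by limma (10 tested each, medians 0.14 and 0.21), with 2 and 5 genes at an unadjusted p below 0.05.

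**Figure D5:**
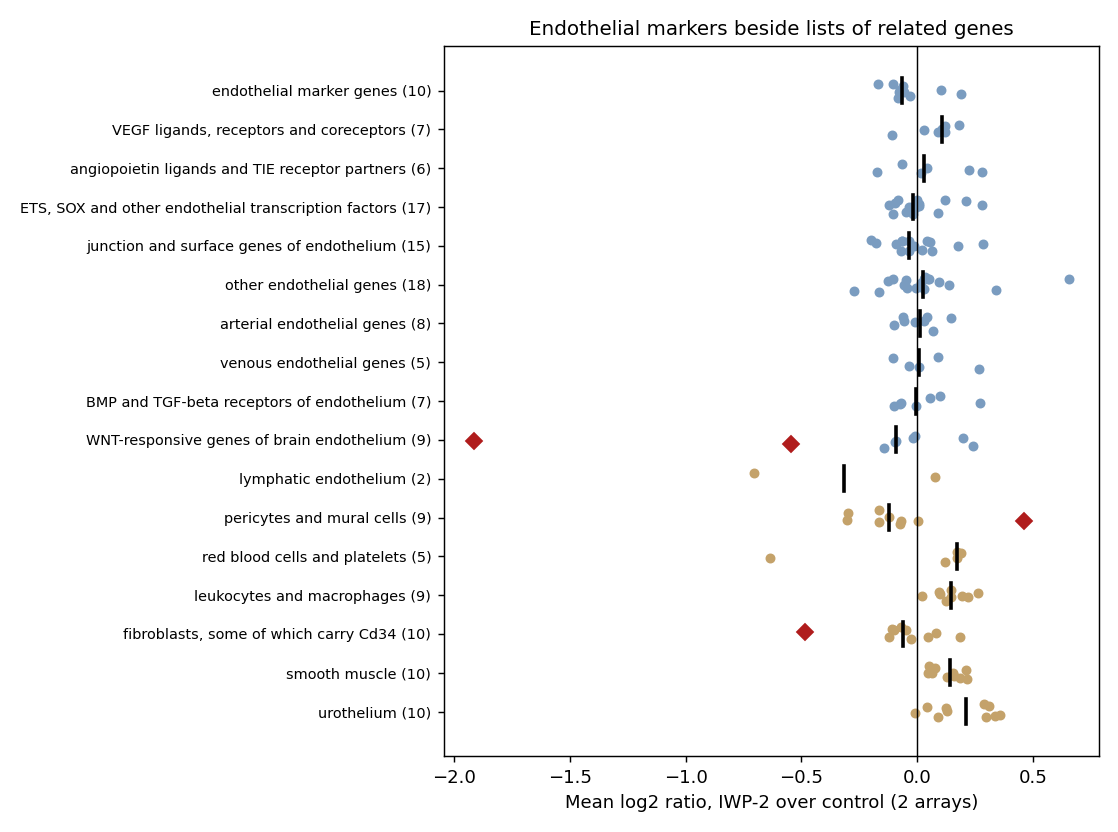
Mean log2 ratio of IWP-2 over control (x axis) for each tested gene of the endothelial markers, of 9 lists of vessel genes (blue) and of 7 lists for other cell types (brown), with the number of tested genes in brackets. Vertical bars are medians and red diamonds the genes called by limma, among which *Axin2* at -1.92 lies farthest from 0, while the endothelial markers lie between -0.17 and 0.19.

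RefSeq start-site sequences (GRCm38.p6, 300 bases each) were listed for 7 of the 10 markers. An ETS core, written CAGGAAG and searched on both strands, stood in 2 of the 7, *Cd34* and *Emcn*, and in 13.3% of all 32851 listed sequences. The TCF/LEF core CTTTGAT stood in 0 of the 7 and in 3.73% of all. These are letter matches in a short window and not binding sites.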

How the data were processed

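RNA of 4 pools was measured on 2 two-colour Agilent arrays. The deposited intensity values are processed signals, which per the file headers come from Feature Extraction 12.2.0.7 (the labels' processing notes name 10.7.3.1), with background subtraction, spatial detrending and dye normalization. The authors' series table holds a score per probe (a fold change with a sign, IWP-2 against control, rounded to 1 decimal) and was used only as an alternative. Among the probes standing for tested genes that showed a change after this rounding, it shared its sign with the ratios used here for 99.9%. The median of each of its columns was 1, and whether values were centred is unknown. The number of other per-sample columns was 0.

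Control spots (17263 per array) and flagged spots were left out. Loess normalization (span 0.3) used limma 3.58.1 under R 4.3.3. The spots of each probe were averaged on the log2 scale, with a floor of 15. Each gene was represented by its brightest probe, by mean log2 signal over the 4 channels. Genes with a mean signal above 100 in either condition were tested with lmFit and eBayes, log2 ratio against 0, with 1 residual degree of freedom and Benjamini-Hochberg adjustment over all 14321 genes. The filter required a control signal above 100 and 1.5-fold in both arrays. Its thresholds follow the study's text, which does not say that both arrays had to pass. Every SE is the moderated one from eBayes. Each ratio pairs the pools that shared an array. Probe positions are those of the array design in mm9, and the RefSeq tables (GRCm38.p6) gave sequences only. Figures were drawn with matplotlib.

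The steps were tested on simulated data. Of the genes given a log2 change of 0.25, which exceeds the mean of any marker, 16% were called, and of those given 0.5, 98% were. The simulated noise was the difference between the arrays divided by 2, which is smaller than the spread of a single array. These shares may therefore be too high. The 10 markers and the 16 lists were chosen with earlier results of these data known. Named genes are all 10 markers and, from each list, the called genes or otherwise up to 4 tested genes with the largest mean moving the same way on both arrays. *Angpt2*, *Erg*, *Lef1*, *Myh11*, *Pdpn*, *Prox1* and *Ptprc* fall outside this rule and were chosen after their values were seen, and for brevity not every gene the rule gives is named. Alternatives covered background, normalization, floor, probe choice, filters, thresholds, flagged spots, the variance model, the pairing and each array alone.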

Additional observations from a re-analysis of the deposited data

Results flagged for a closer look

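For 4 of the 10 markers the log2 ratios of the arrays had opposite signs, which 45.1% of all tested genes also had. The difference between the arrays was not tested, since each sex, dye orientation and array has 1 control and 1 treated pool. The log2 ratio in replicate 2 minus that in replicate 1 was 0.42 for *Flt1*, 0.34 for *Kdr*, -0.23 for *Tie1* and 0.14 for *Emcn*. The median absolute difference over all tested genes was 0.10, and 3.53% of them differed by at least as much as *Flt1*. For *Kdr* and *Flt1* the difference stood on the brighter probe. The dimmer *Kdr* probe gave ratios of 0.00 on both arrays, and the second *Flt1* probe gave -0.09 and -0.03.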

How the results depend on the processing

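The count of 0 markers called by limma held under every alternative fitted but the authors' series table, which called 1, *Esam* (-0.14, adjusted p = 0.016). Its values were the same rounded fold on both arrays, which leaves no spread. The count of 0 markers past the filter held under every alternative. Without the pairing, as 4 separate channels with no replicate block, 0 markers were called, with 8 calls over all genes in place of 192. The median of the markers ran from -0.0793 to -0.0137 when each array was left out in turn. *Kdr* turned to 0.0126 with median centring, and *Dll4*, a Notch ligand, to 0.0328. With median centring the median of all tested genes was 0.0363, in place of -0.0059, and both genes stayed below it. *Tgfbr2*, a TGF-beta receptor, turned to 0.0581 with the mean of all probes. Calls in the lists (3 lower, 1 higher) became 5 and 6 with an intensity trend in eBayes, 5 and 17 in the series table, 0 and 0 with the mean of all probes (where *Axin2* was too dim to test), and 1 and 0 without the pairing. The higher count became 0 without further loess, without the filter on dim probes and with probes well above background, and 2 with normexp, which kept the tested genes and probes of the reported values. Overall calls were 115 without further loess, 67 with the mean of probes, 114 without the dim filter, 303 with normexp, 430 with the trend and 1319 in the series table. Median centring called 90 lower and 66 higher, in place of 132 and 60, and normexp 177 and 126. Genes at the floor in all 4 channels were left out throughout. The number of arrays limits the precision.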

Other observations

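Of 6 listed lymphatic genes on the arrays 2 could be tested, *Lyve1* and *Pdpn*, and 0 were called by limma, with 1 at an unadjusted p below 0.05. *Pdpn*, a mucin-like protein of lymphatic endothelium and other cells, read 1887 and 2515 in the control and 2187 and 2417 in the treated pools, a mean log2 ratio of 0.08 ± 0.08 (SE, n = 2 arrays). *Prox1*, the factor that defines lymphatic identity, was at the floor of 15 in all 4 channels. *Lyve1*, a hyaluronan receptor of lymphatic endothelium that some macrophages also carry, read 476 and 350 in the control and 242 and 258 in the treated pools. Both treated pools were below both controls, with log2 ratios of -0.97 and -0.44, a mean of -0.71 ± 0.12 (SE, n = 2 arrays) and a limma adjusted p of 0.056. The call was made with normexp and with an intensity trend.

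Blood cells were present beside the vessels. The 9 tested leukocyte and macrophage genes all had a mean log2 ratio above 0, with a median of 0.15, 0 limma calls and 1 gene at an unadjusted p below 0.05, and *Ptprc*, the common leukocyte antigen, was too dim to test, with signals from 30.3 to 41.1. *Adgre1*, a macrophage marker, had 0.26 ± 0.07 (SE, n = 2 arrays, limma adjusted p = 0.15). The adult globin gene *Hba-a1* had 0.17 ± 0.07, while the platelet chemokine gene *Ppbp* had -0.12 in replicate 1 and -1.15 in replicate 2, with a limma adjusted p of 0.24. *Lef1*, a WNT-responsive factor of brain endothelium, was below the signal limit for testing, with 62.1 and 41.5 in the control and 35.2 and 22.0 in the treated pools.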
